A study of Mus musculus with 17 samples.

Results

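The Notch genes described here are 10 of the 49671 mouse genes counted in the series. They were chosen by symbol, with earlier results of these data known. They are the ligands Dll1, Dll3 and Jag1, the receptors Notch1, Notch2 and Notch3, the co-activator Maml2, and the effectors Hes1, Hes5 and Hey1. Of these, 2 passed the test in a comparison. Hes1 was higher in FOXA2-positive than in FOXA2-negative cells under BMP4 and under RA. Under LDN its log2 fold change, 0.80, was close to the 0.85 under BMP4 but did not pass. The BMP4 call was lost when some single libraries were left out. Among FOXA2-positive cells, Maml2 was lower under BMP4 than under LDN and higher under LDN than under RA. The 3 ligands passed the test in no comparison.

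The cells were R1 mouse embryonic stem cells that carry FOXA2-Venus, a fluorescent reporter of the transcription factor FOXA2, and every group compared here carries it. In the neural tube FOXA2 is a marker of the floor plate at the ventral midline. The titles divide each treatment into FOXA2-positive and FOXA2-negative cells. BMP4-treated cells had 18 h of retinoic acid (RA), 6 h without treatment and 8 h of BMP4, a secreted signalling protein, and gave 3 FOXA2-positive and 3 FOXA2-negative libraries. LDN-treated cells had the same hours with the agent the labels call LDN in place of BMP4, and gave 2 FOXA2-positive libraries, numbered 2 and 3, and 3 FOXA2-negative ones. A FOXA2-positive LDN library numbered 1 was not analysed here. RA cells had 18 h of retinoic acid alone and gave 3 libraries of each fraction, so treatment and time cannot be told apart in any comparison with them. All cells came from 1 line, and no label says whether replicate libraries were separate cultures; p-values therefore measure only the spread between these libraries, which may be technical.

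Notch receptors are cut when a ligand of the Delta or Jagged family on a neighbouring cell binds them. The freed intracellular domain enters the nucleus, joins the DNA-binding protein RBPJ and a Mastermind co-activator, and turns on HES and HEY genes, whose products are repressors. In the developing neural tube this pathway keeps progenitors from becoming neurons, and HES proteins repress the proneural genes.

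The 17 libraries held between 8435845 and 10796136 gene counts, with 16139 to 18457 genes detected. Foxa2 itself averaged 25.8 ± 2.8 CPM (counts relative to library size, scaled by the trimmed mean of M values, TMM) in the FOXA2-positive and 0.775 ± 0.86 CPM in the FOXA2-negative BMP4 libraries (SD, n = 3 each), and the fractions differed likewise under LDN and RA. The 2 RA libraries numbered 1 stood apart: mitochondrial genes took 7.43% of counts in the FOXA2-positive and 6.94% in the FOXA2-negative one, against 3.5% to 4.81% in the other libraries. All 10 markers of pluripotent stem cells on the list used were detected. Their summed level was lower in FOXA2-positive than in FOXA2-negative cells, at 339 to 449 against 656 to 1007 CPM under BMP4, 365 to 386 against 764 to 1089 CPM under LDN, and 313 to 442 against 898 to 1176 CPM under RA. Of these 10 markers, 6 were called lower (edgeR quasi-likelihood test, adjusted p under 0.05) in FOXA2-positive cells under BMP4, 6 under LDN and 5 under RA. Of the 8 floor plate markers, Ferd3l was at 0 in every library.

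Upstream sequence was printed for 3 members: Hes5, the HES gene with the widest spread between libraries, and Notch2 and Maml2, the receptor and the co-activator with their highest levels in FOXA2-positive LDN cells. Each is the 250 bases before a RefSeq transcription start (GRCm38.p6, plus strand), at chr4:154960673-154960922 for Hes5, chr3:98013288-98013537 for Notch2 and chr9:13297708-13297957 for Maml2. Capitals mark TGGGAA, the core of the motif that RBPJ binds, on either strand.
Hes5: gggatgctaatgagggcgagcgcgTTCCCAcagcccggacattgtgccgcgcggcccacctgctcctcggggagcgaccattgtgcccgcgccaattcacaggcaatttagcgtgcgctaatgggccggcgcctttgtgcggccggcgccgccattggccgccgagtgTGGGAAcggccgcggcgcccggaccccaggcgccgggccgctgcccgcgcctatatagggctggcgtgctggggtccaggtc
Notch2: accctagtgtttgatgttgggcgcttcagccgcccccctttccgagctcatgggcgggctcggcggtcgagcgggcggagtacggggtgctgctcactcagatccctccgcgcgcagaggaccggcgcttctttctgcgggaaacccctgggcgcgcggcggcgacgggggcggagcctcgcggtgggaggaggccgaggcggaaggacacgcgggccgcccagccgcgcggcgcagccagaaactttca
Maml2: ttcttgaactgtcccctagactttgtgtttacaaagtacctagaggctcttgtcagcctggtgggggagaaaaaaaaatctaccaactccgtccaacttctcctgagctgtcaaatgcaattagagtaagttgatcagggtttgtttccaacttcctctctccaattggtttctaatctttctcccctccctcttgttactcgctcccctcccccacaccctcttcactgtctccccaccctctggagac
The Hes5 window held TGGGAA at -226 to -221 on the minus strand and at -82 to -77 on the plus strand, counted from the start site. Both lie within the longer form GTGGGAA. Over 32851 mouse windows of this length, 21.6% held TGGGAA at least once and 2.77% at least 2 times, and 0.161% held GTGGGAA at least 2 times. The Notch2 and Maml2 windows shown had no TGGGAA. A second Maml2 window, at chr9:13662210-13662459, held it 1 time, and the other member windows did not. The Notch2 and Maml2 windows shown each held CACNAG, an N box of the kind HES proteins bind, 1 time, at -247 to -242 and at -193 to -188, on the minus strand in both; 36.7% of all windows held it. CACGTG, the E box, was in none of the 10 windows found for 8 members (all but Hes1 and Hey1); 6.02% of all windows held it. These are matches of letters and not measured sites.

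Per length of exon, Hes1 and Notch2 were the most abundant members. Median levels over the 17 libraries, in CPM per kilobase of annotated exon, were 92.7 for Hes1, 74.6 for Notch2, 11.4 for Hes5, 7.18 for Maml2, 3.38 for Notch3, 3.32 for Dll3, 1.92 for Jag1, 1.13 for Notch1, 0.939 for Dll1 and 0.289 for Hey1. Neighbours in this order overlapped in their ranges: Hes1 spanned 43.7 to 144.7 and Notch2 36.5 to 152.6 CPM per kilobase, while Hes5 spanned 2.05 to 55.1 and Maml2 3.64 to 22.7. Notch2 and Hes5 also overlapped, since the lowest Notch2 library was below the highest Hes5 one. Notch2 made up 85.0% to 96.9% of the summed level per length of the 3 receptors, Notch3 1.8% to 9.8% and Notch1 0.6% to 5.2%. Hes1 made up 64.4% to 97.2% of the summed level per length of the 3 effectors. No ligand led in every library: Dll3 ranged from 9.7% to 86.6%, Jag1 from 10.2% to 65.3% and Dll1 from 3.3% to 43.8% of the 3 ligands.

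**Figure D1:**
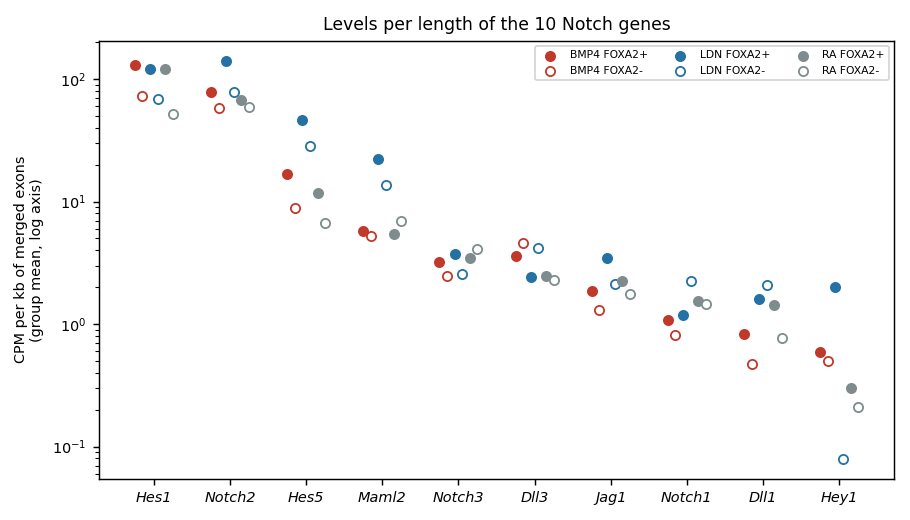
Mean level per length of each Notch member in each of the 6 groups (log axis, CPM per kilobase of merged exons; filled points are FOXA2-positive, open ones FOXA2-negative), with the members in order of their median over libraries. Hes1, with a median of 92.7, and Notch2, with 74.6, lead, and Hey1, at 0.289, is lowest.

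Among the ligands, Dll1 (ENSMUSG00000014773, mm10 chr17:15367354-15376872, minus strand) encodes a Delta ligand that activates Notch on neighbouring cells. Dll1 had 3.31, 3.88 and 3.39 CPM in the FOXA2-positive and 1.16, 0.86 and 3.96 CPM in the FOXA2-negative BMP4 libraries. It had 6.06 and 7.34 CPM in the FOXA2-positive and 4.30, 7.09 and 15.2 CPM in the FOXA2-negative LDN libraries, and 11.1, 2.16 and 5.01 CPM in the FOXA2-positive and 4.39, 3.33 and 2.09 CPM in the FOXA2-negative RA libraries. The fractions overlapped in all 3 treatments. BMP4 libraries lay below LDN libraries in both fractions, without overlap, with log2 fold changes of -0.92 ± 0.83 (SE) in the FOXA2-positive and -2.14 ± 0.79 in the FOXA2-negative cells. Neither passed the edgeR quasi-likelihood test, with adjusted p = 0.857 and 0.56.

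Dll3 (ENSMUSG00000003436, chr7:28293553-28302238, minus strand) encodes a divergent Delta protein that is known in mouse to inhibit Notch within the cell that makes it. It had 12.8, 4.19 and 14.0 CPM in the FOXA2-positive and 20.8, 9.46 and 8.68 CPM in the FOXA2-negative BMP4 libraries. It had 11.9 and 1.93 CPM in the FOXA2-positive and 8.18, 15.7 and 11.8 CPM in the FOXA2-negative LDN libraries, and 2.99, 7.70 and 10.3 CPM in the FOXA2-positive and 5.02, 10.7 and 3.95 CPM in the FOXA2-negative RA libraries. Its groups overlapped in all 9 comparisons, and the 2 FOXA2-positive LDN libraries were far apart.

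Jag1 (ENSMUSG00000027276, chr2:137081456-137116644, minus strand) encodes a Jagged ligand. It had 8.97, 11.2 and 12.1 CPM in the FOXA2-positive and 5.003, 6.56 and 11.3 CPM in the FOXA2-negative BMP4 libraries. It had 13.6 and 26.5 CPM in the FOXA2-positive and 18.4, 7.67 and 11.2 CPM in the FOXA2-negative LDN libraries, and 13.5, 19.1 and 6.55 CPM in the FOXA2-positive and 7.11, 16.0 and 7.47 CPM in the FOXA2-negative RA libraries. Its FOXA2-positive mean was higher in each treatment, but the fractions overlapped in all 3, and the log2 differences were 0.49 ± 0.48 under BMP4, 0.69 ± 0.53 under LDN and 0.36 ± 0.48 under RA. In FOXA2-positive cells the 3 BMP4 libraries lay below both LDN libraries, at a log2 fold change of -0.90 ± 0.53 (edgeR adjusted p = 0.732).

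**Figure D2:**
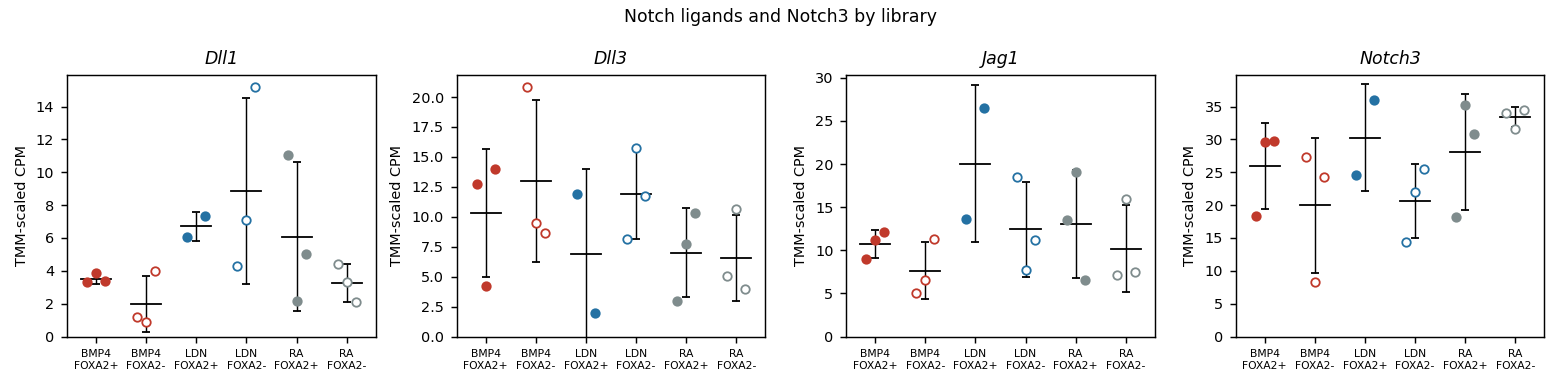
TMM-scaled CPM of the 3 ligands and of Notch3 in each library, with FOXA2-positive (filled) left of FOXA2-negative (open) within BMP4, LDN and RA; lines are the mean and bars the SD over 2 libraries in FOXA2-positive LDN and 3 in the other groups. Dll1 averaged 3.52 CPM in FOXA2-positive BMP4 cells and 6.7 CPM in FOXA2-positive LDN cells, and within each treatment the 2 fractions overlap for all 4 genes.

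Notch2 (ENSMUSG00000027878, chr3:98013527-98150361, plus strand) was the main Notch receptor transcript. It had 859.6, 899 and 790.3 CPM in FOXA2-positive BMP4 libraries and 583, 611 and 691 CPM in FOXA2-negative ones. It had 1411 and 1646 CPM in the 2 FOXA2-positive LDN libraries and 805, 838 and 919.9 CPM in the 3 FOXA2-negative ones. RA libraries had 460.2, 838.5 and 879 CPM in the FOXA2-positive and 393, 714 and 797 CPM in the FOXA2-negative cells. Both FOXA2-positive LDN libraries stood above every other library of the series. The fractions did not overlap under BMP4 or LDN, where all FOXA2-positive libraries were higher, and overlapped under RA.

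The Notch2 differences between fractions were 0.44 ± 0.21 (log2, SE) under BMP4, 0.84 ± 0.24 under LDN and 0.19 ± 0.21 under RA, with edgeR adjusted p = 0.468, 0.11 and 0.867. In FOXA2-positive cells the log2 fold change was -0.85 ± 0.24 for BMP4 over LDN (adjusted p = 0.198) and 1.07 ± 0.24 for LDN over RA (adjusted p = 0.0626). None of these passed in the edgeR model of the 6 groups with low counts filtered. DESeq2 gave adjusted p = 0.42 for the fractions under BMP4, 0.0204 under LDN, 0.0378 for BMP4 over LDN and 0.00256 for LDN over RA. With no filter on low counts, edgeR also called the last 3 (adjusted p = 0.000354, 0.000568 and 1.44e-06). Without both RA libraries numbered 1, the edgeR adjusted p was 0.0401 for the fractions under BMP4, 0.00021 under LDN, 0.000173 for BMP4 over LDN and 0.00345 for LDN over RA, the last at a log2 fold change of 0.84. Under RA, the pairs numbered 1, 2 and 3 gave FOXA2-positive over FOXA2-negative ratios of 1.17, 1.175 and 1.10. A short gene on the same strand, Gm42820, shares 541 exonic bases with Notch2 and held 700 counts in all, against 138093 for Notch2.

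Notch1 (ENSMUSG00000026923, chr2:26457903-26516663, minus strand), the best-known receptor of the family, had 15.7, 15.9 and 14.2 CPM in the FOXA2-positive and 11.5, 10.9 and 12.1 CPM in the FOXA2-negative BMP4 libraries. LDN libraries had 20.8 and 12.9 CPM in the FOXA2-positive and 37.7, 34.5 and 23.1 CPM in the FOXA2-negative cells. RA libraries had 32.2, 16.1 and 17.6 CPM in the FOXA2-positive and 31.6, 10.97 and 19.2 CPM in the FOXA2-negative cells. FOXA2-positive cells were thus higher under BMP4 and lower under LDN, without overlap in either, and in RA both libraries numbered 1 were the highest of their group. The log2 difference between fractions was 0.41 ± 0.37 under BMP4, -0.91 ± 0.42 under LDN and 0.09 ± 0.36 under RA. The BMP4 difference minus the LDN difference was 1.32 ± 0.55, with edgeR unadjusted p = 0.0245 and adjusted p = 0.779. In FOXA2-negative cells BMP4 over LDN was -1.47 ± 0.37 (adjusted p = 0.137), and DESeq2 gave adjusted p = 0.0401 for it. Notch1 shares 1068 exonic bases with 0610009E02Rik on the other strand, which held 296 counts in all against 3294 for Notch1; the strand setting of the counting is not given in the sources used here, so reads of the shared stretch cannot be told apart.

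Notch3 (ENSMUSG00000038146, chr17:32120820-32166852, minus strand) is another receptor of the family. It had 18.3, 29.6 and 29.8 CPM in the FOXA2-positive and 27.3, 8.28 and 24.2 CPM in the FOXA2-negative BMP4 libraries. It had 24.5 and 36.0 CPM in the FOXA2-positive and 14.5, 22.1 and 25.5 CPM in the FOXA2-negative LDN libraries, and 18.2, 35.2 and 30.8 CPM in the FOXA2-positive and 34.1, 31.6 and 34.5 CPM in the FOXA2-negative RA libraries. The fractions overlapped in each treatment. In FOXA2-negative cells all BMP4 and all LDN libraries lay below all 3 RA libraries, at log2 fold changes of -0.74 ± 0.36 for BMP4 over RA and -0.69 ± 0.36 for LDN over RA (edgeR adjusted p = 0.672 and 0.657). These 2 comparisons share the RA libraries.

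Maml2 (ENSMUSG00000031925, chr9:13297957-13709388, plus strand) encodes a Mastermind co-activator of the Notch and RBPJ complex. BMP4 libraries had 43.1, 39.9 and 31.99 CPM in the FOXA2-positive and 47.4, 28.3 and 28.7 CPM in the FOXA2-negative cells. The 2 FOXA2-positive LDN libraries had 146 and 149.7 CPM, and the FOXA2-negative ones 60.7, 112 and 96.1 CPM. RA libraries had 24.0, 50.1 and 33.4 CPM in the FOXA2-positive and 25.2, 59.8 and 52.5 CPM in the FOXA2-negative cells. All 5 LDN libraries were above all 12 others, and the BMP4 and RA libraries overlapped. From high to low the group means were 148, 89.7, 45.8, 38.3, 35.8 and 34.8 CPM for LDN FOXA2-positive, LDN FOXA2-negative, RA FOXA2-negative, BMP4 FOXA2-positive, RA FOXA2-positive and BMP4 FOXA2-negative cells; the ranges of the last 4 overlap.

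In FOXA2-positive cells Maml2 was 3.85-fold lower under BMP4 than under LDN, with a log2 fold change of -1.95 ± 0.33 and an edgeR adjusted p = 0.00217. The fold change stayed between -2.04 and -1.83 as each of the 5 libraries was left out, with adjusted p between 0.012 and 0.0283. LDN over RA was 4.12-fold, or 2.04 ± 0.33 on the log2 scale (adjusted p = 0.00367), and 1.83 without both RA libraries numbered 1 (adjusted p = 0.00425). These 2 comparisons share the LDN libraries. In FOXA2-negative cells BMP4 over LDN was -1.37 ± 0.30 and did not pass, at edgeR adjusted p = 0.0535; it passed without both RA libraries numbered 1 (0.00497), without FOXA2-negative BMP4 library 1 (0.0332), without FOXA2-negative LDN library 1 (0.0267) and in DESeq2 (0.0126). LDN over RA in FOXA2-negative cells was 0.97 ± 0.30 (adjusted p = 0.52). The Maml2 difference between fractions was 0.14 ± 0.30 under BMP4, 0.72 ± 0.32 under LDN and -0.35 ± 0.30 under RA; LDN minus RA came to 1.07 ± 0.44, with edgeR unadjusted p = 0.022 and adjusted p = 0.86.

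Summed levels of neural progenitor markers were also highest in LDN cells within each fraction. The 8 markers summed to 407 to 620.1 CPM in BMP4, 919 to 997 CPM in LDN and 595 to 609 CPM in RA FOXA2-positive cells, and to 361 to 451 CPM in BMP4, 595 to 651 CPM in LDN and 398 to 460.3 CPM in RA FOXA2-negative cells. Of the 8, 2 were called lower in BMP4 than in LDN in FOXA2-positive cells and 1 in FOXA2-negative cells, and none was at 0 throughout. For LDN over RA, 5 of the 8 were positive and 3 negative in FOXA2-positive cells, with 1 called higher, and 6 were positive and 2 negative in FOXA2-negative cells, with none called. The 8 surface ectoderm markers summed to 678 to 777 CPM in BMP4 against 440.2 to 503 CPM in LDN FOXA2-positive cells, with 6 positive and 2 negative and 4 of 8 called higher under BMP4. In FOXA2-negative cells their sum was 784 to 826 CPM in BMP4 against 827 to 994 CPM in LDN, with 3 positive and 5 negative and 2 of 8 called higher under BMP4. Neuron marker sums were also highest under LDN in both fractions, without overlap with BMP4 or RA. Floor plate and mesoderm sums were so in FOXA2-positive cells only, at 68.0 to 84.3 and 36.2 to 62.9 CPM under LDN. Surface ectoderm sums were so in FOXA2-negative cells only. Pluripotent, endoderm and endothelium sums were so in neither fraction. The part of these cell types in the Maml2 and Notch2 differences was not tested. In bulk RNA, fewer cells of a type and less RNA per cell cannot be told apart.

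Hes1 (ENSMUSG00000022528, chr16:30064384-30067796, plus strand) encodes a repressor that Notch signalling induces in neural progenitors. It had 294, 214 and 295 CPM in the FOXA2-positive and 189, 158 and 99.4 CPM in the FOXA2-negative BMP4 libraries. LDN libraries had 229.9 and 259.7 CPM in the FOXA2-positive and 115, 187 and 122 CPM in the FOXA2-negative cells, and RA libraries had 230.0, 278 and 227 CPM in the FOXA2-positive and 89.1, 111 and 119 CPM in the FOXA2-negative cells. Every FOXA2-positive library lay above every FOXA2-negative library of the series. The FOXA2-positive means were 268 ± 46.5 CPM under BMP4 (n = 3), 245 ± 21.1 under LDN (n = 2) and 245 ± 28.9 under RA (n = 3), and the LDN and RA means were within 1 SD of the BMP4 mean. The FOXA2-negative means were 149 ± 45.4, 141 ± 39.7 and 106 ± 15.5 CPM under BMP4, LDN and RA (SD, n = 3 each).

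Hes1 was 1.80-fold higher in FOXA2-positive than in FOXA2-negative cells under BMP4, at a log2 fold change of 0.85 ± 0.21 (edgeR adjusted p = 0.0433). Under RA it was 2.30-fold higher, at 1.20 ± 0.21 (adjusted p = 0.00232). Under LDN the difference was 0.80 ± 0.23 and did not pass (adjusted p = 0.109; DESeq2 0.0466). The differences between treatments in this fold were -0.36 ± 0.29 for BMP4 minus RA, -0.41 ± 0.31 for LDN minus RA and 0.05 ± 0.31 for BMP4 minus LDN, none of which passed (edgeR adjusted p between 0.954 and 1). The RA pairs numbered 1, 2 and 3 gave ratios of 2.58, 2.51 and 1.90, and without both libraries numbered 1 the RA difference was 1.14 (adjusted p = 0.0348). The BMP4 call was lost without FOXA2-positive library 1 (0.195) or 3 (0.173), or without FOXA2-negative library 2 (0.125) or 3 (0.194), while the fold change stayed between 0.63 and 1.05. The pluripotency markers, lower in FOXA2-positive cells as given above, differed between the same fractions. The 8 surface ectoderm markers summed to 678 to 777 CPM in the FOXA2-positive against 784 to 826 CPM in the FOXA2-negative cells under BMP4, 440.2 to 503 against 827 to 994 CPM under LDN, and 367 to 459.9 against 654 to 781 CPM under RA, with 1, 5 and 4 called lower. The 8 endoderm markers, of which Cer1 was at 0 throughout, summed to 43.8 to 99.9 against 11.4 to 34.4 CPM under BMP4, 57.9 to 90.3 against 5.56 to 22.2 CPM under LDN, and 47.9 to 62.7 against 4.61 to 17.8 CPM under RA, higher in FOXA2-positive cells in each treatment; of the 7 tested, 0, 1 and 1 were called higher. Foxa1, an endoderm marker, is also on the floor plate list. The 7 neuron markers were lower in sum in FOXA2-positive cells in each treatment, at 46.4 to 63.5 against 77.8 to 85.5, 70.4 to 70.8 against 116 to 133 and 50.2 to 59.5 against 105 to 108 CPM under BMP4, LDN and RA, with 0, 0 and 1 of the 6 tested called lower. Of the 8 neural progenitor markers, 8, 6 and 7 had positive fold changes, and 0, 0 and 1 were called higher in FOXA2-positive cells. The part of these marker lists in the Hes1 difference was not tested.

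**Figure D3:**
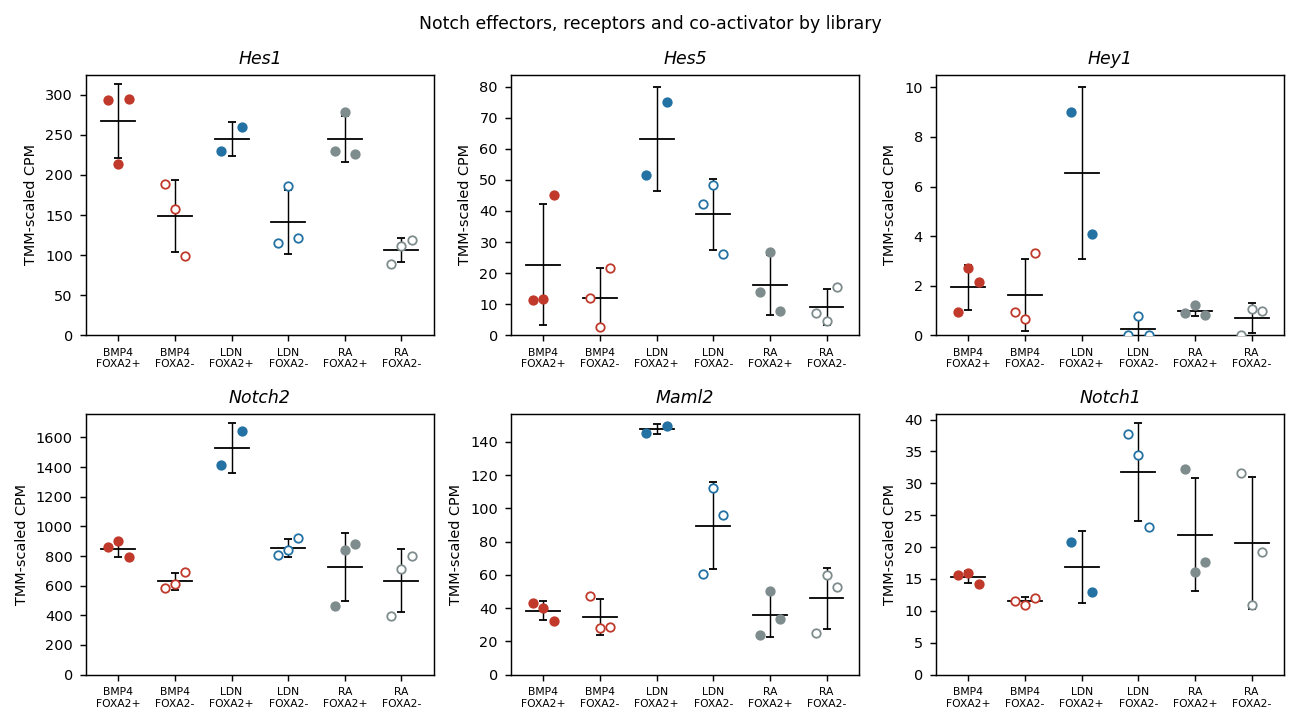
TMM-scaled CPM of the members with the larger differences and the other effectors, by library, with FOXA2-positive (filled) left of FOXA2-negative (open) within BMP4, LDN and RA; lines are the mean and bars the SD over 2 libraries in FOXA2-positive LDN and 3 in the other groups. Hes1 averages 245 to 268 CPM in the FOXA2-positive and 106 to 149 CPM in the FOXA2-negative groups, and Maml2 and Notch2 are highest in FOXA2-positive LDN cells, at 148 and 1528 CPM.

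Hes5 (ENSMUSG00000048001, chr4:154960923-154962371, plus strand) encodes a second HES repressor of neural progenitors, and its upstream window with 2 RBPJ motifs is printed above. BMP4 libraries had 11.3, 11.6 and 45.3 CPM in the FOXA2-positive and 11.9, 2.80 and 21.6 CPM in the FOXA2-negative cells. LDN libraries had 51.4 and 75.1 CPM in the FOXA2-positive and 42.3, 48.3 and 25.98 CPM in the FOXA2-negative cells, and RA libraries had 13.9, 26.6 and 7.88 CPM in the FOXA2-positive and 7.004, 4.70 and 15.6 CPM in the FOXA2-negative cells. Within each fraction the LDN libraries were above all BMP4 and RA libraries, and the fractions overlapped under BMP4 and RA but not under LDN. In FOXA2-positive cells the log2 fold change was -1.47 ± 0.74 for BMP4 over LDN and 1.97 ± 0.74 for LDN over RA, and in FOXA2-negative cells -1.68 ± 0.69 and 2.10 ± 0.71. None passed the edgeR test, with adjusted p between 0.417 and 0.693, nor DESeq2, with 0.128 to 0.454. With no filter on low counts, edgeR called all 4, at adjusted p between 1.84e-06 and 0.00921. The spread was wide: the highest library had 26.9 times the CPM of the lowest, and under RA the pairs numbered 1, 2 and 3 gave FOXA2-positive over FOXA2-negative ratios of 1.99, 5.67 and 0.505. Per length, Hes5 took 5.4% to 18.6% of the summed effectors in BMP4, 24.6% to 30.0% in LDN and 4.9% to 12.5% in RA FOXA2-positive libraries.

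Hey1 (ENSMUSG00000040289, chr3:8663359-8667256, minus strand), a HES-related repressor, was near the limit of detection. BMP4 libraries had 10, 26 and 22 counts in FOXA2-positive and 8, 6 and 35 in FOXA2-negative cells. The 2 FOXA2-positive LDN libraries had 95 and 34 counts, or 8.99 and 4.09 CPM, and the FOXA2-negative ones 0, 8 and 0 counts, where a count of 0 allows up to 0.313 CPM in library 1 and 0.29 CPM in library 3. RA libraries had 8, 13 and 8 counts in FOXA2-positive and 0, 11 and 9 in FOXA2-negative cells. Both FOXA2-positive LDN libraries were above all the others. The fitted log2 difference between LDN fractions, 4.58 ± 1.76, depends on how the zeros are handled and did not pass in edgeR (adjusted p = 0.294; DESeq2 0.0477).

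Set side by side, more members leaned towards FOXA2-positive cells than away from them. All 10 passed the filter on low counts and were tested. They were chosen with earlier results of these data known, so shares set against all genes, here and below, are a description only. Under BMP4, 9 of 10 fold changes were positive, with a median of 0.42, and 1 (Hes1) was called, against 0.921% of all 17813 genes tested. Under LDN, 7 were positive, with a median of 0.70. None was called by edgeR, against 0.994% of all genes, and DESeq2 called 3 (Notch2, Hes1 and Hey1), against 2.73% of all genes. In edgeR 5 had an unadjusted p under 0.05, against 11.2% of all genes. Of these, Notch2, Hes1, Hey1 and Maml2 were higher in FOXA2-positive cells and Notch1 was lower. Under RA, 8 were positive, with a median of 0.27, and 1 (Hes1) was called, against 1.19%. Medians over all genes were between -0.03 and 0.00. Without both RA libraries numbered 1, edgeR called 2 members (Hes1 and Notch2) under BMP4, 1 (Notch2) under LDN and 1 (Hes1) under RA, against 1.29%, 1.47% and 0.623% of the 17486 genes then tested. FOXA2-positive libraries were all higher for 3 members under BMP4, 5 under LDN and 1 under RA, against 7.51%, 13.1% and 7.25% of all genes. FOXA2-positive libraries were all lower for 0 members under BMP4, 1 under LDN (Notch1) and 0 under RA, against 7.31%, 14.7% and 7.99% of all genes. Notch2, Jag1, Hes1, Hes5 and Hey1 had positive fold changes in all 3 treatments, which share no libraries, and no member was negative in all 3; of all genes, 18.9% were positive and 20.9% negative in all 3.

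**Figure D4:**
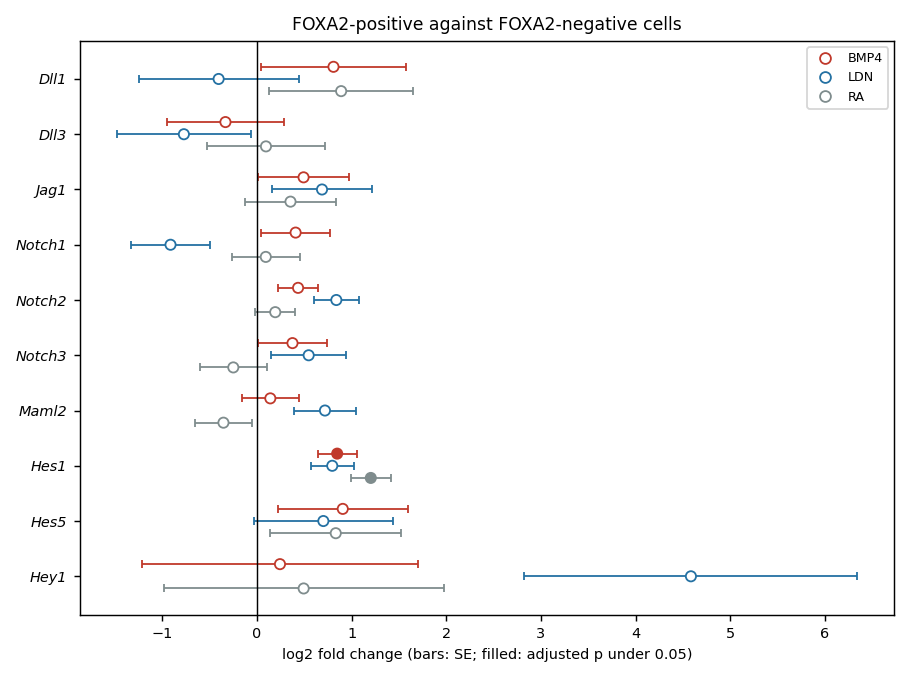
Log2 fold change of FOXA2-positive over FOXA2-negative cells for each member under BMP4, LDN and RA (points; bars are SE, filled points have an edgeR adjusted p under 0.05). The filled points are Hes1 under BMP4 at 0.85 and under RA at 1.20; Hey1 under LDN, at 4.58, has an SE of 1.76.

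Between BMP4 and LDN, which were matched in hours, the members lay mostly lower under BMP4. No group had these hours without either agent, so a fall under BMP4 and a rise under LDN cannot be told apart. In FOXA2-positive cells 8 of 10 fold changes were negative, with a median of -0.87 against 0.01 over all genes, and 1 (Maml2) was called, against 0.32% of all genes. All BMP4 libraries were below all LDN libraries for 6 members there, against 10.8% of genes: Dll1, Jag1, Notch2, Maml2, Hes5 and Hey1. In FOXA2-negative cells 7 were negative, with a median of -0.57 against 0.00; edgeR called none, against 0.196% of all genes, with 4 at an unadjusted p under 0.05, against 7.06%, and DESeq2 called 2 (Notch1 and Maml2), against 0.657%. There the groups did not overlap for 5 members, all lower under BMP4, against 5.93% of genes: Dll1, Notch1, Notch2, Maml2 and Hes5. Without both RA libraries numbered 1, edgeR called Notch2 and Maml2 in FOXA2-positive and Maml2 in FOXA2-negative cells, against 0.475% and 0.303% of genes. BMP4 was higher without overlap for 0 members in either fraction, against 11.6% of genes in FOXA2-positive and 5.32% in FOXA2-negative cells. Hes1 differed little between these treatments, by 0.13 ± 0.23 in the FOXA2-positive and 0.08 ± 0.21 in the FOXA2-negative cells.

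Against RA, LDN cells had the larger differences. In FOXA2-positive cells LDN over RA was positive for 7 of 10 members, with a median of 0.38, and 1 (Maml2) was called, against 0.208% of all genes; without both RA libraries numbered 1, Maml2 and Notch2 were called, against 0.24%. All LDN libraries were above all RA libraries for Notch2, Maml2, Hes5 and Hey1, 4 members, against 11.7% of genes, and below for 0, against 14.2%. In FOXA2-negative cells 8 were positive, with a median of 0.53. There edgeR and DESeq2 called none, against 0.0393% of all genes in edgeR and 0.219% in DESeq2. In edgeR 2 had an unadjusted p under 0.05, against 7.5% of genes. There LDN was higher without overlap for 3 members, against 6.01% of genes, and lower for 1, against 6.27%. BMP4 over RA was positive for 6 members in the FOXA2-positive and 4 in the FOXA2-negative cells, with medians of 0.11 and -0.21. No member was called in either fraction by edgeR, against 0.0786% of all genes in each, or by DESeq2, against 0.258% and 0.337%. In edgeR 0 and 3 members had an unadjusted p under 0.05, against 5.6% and 7.36% of genes. In each fraction 1 member was lower in BMP4 than in RA without overlap, Notch1 in the FOXA2-positive and Notch3 in the FOXA2-negative cells, against 6.14% and 5.71% of genes, and 0 members were higher, against 5.69% and 4.75%. BMP4 and LDN comparisons with RA share the RA libraries.

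**Figure D5:**
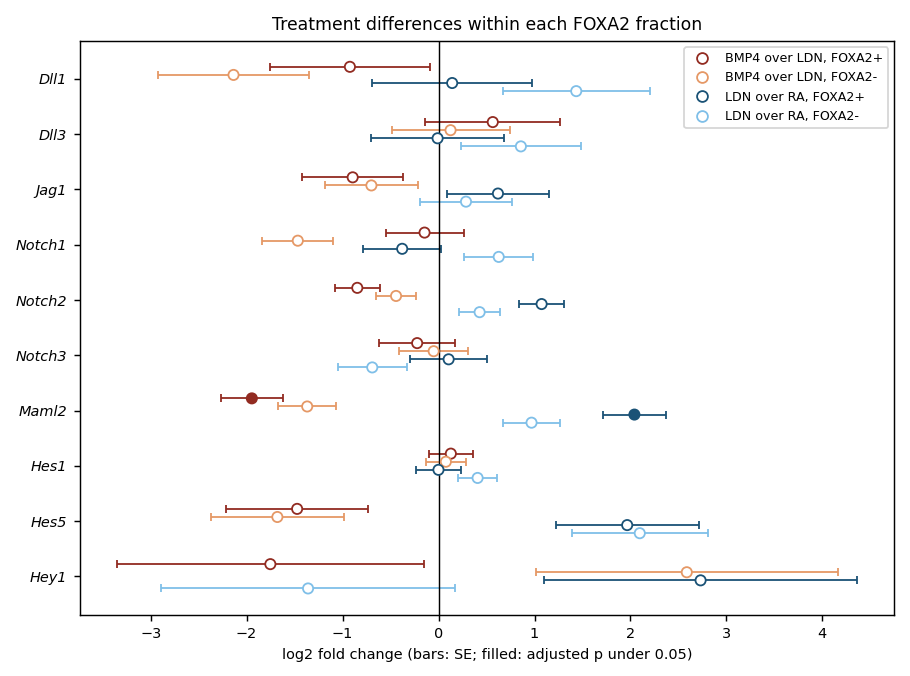
Log2 fold change of each member for BMP4 over LDN and for LDN over RA in FOXA2-positive and FOXA2-negative cells (points; bars are SE, filled points have an edgeR adjusted p under 0.05). Both filled points are Maml2 in FOXA2-positive cells, at -1.95 for BMP4 over LDN and 2.04 for LDN over RA, and these comparisons share the LDN libraries.

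Tests of whether the difference between fractions itself changed with treatment called no member in edgeR or DESeq2. Of all genes, edgeR called 0.0337% for BMP4 minus LDN and 0.00561% each for BMP4 minus RA and LDN minus RA. DESeq2 called 0.191%, 0.0281% and 0.0337% in the same order. The members with an unadjusted p under 0.05 were Notch1 for BMP4 minus LDN and Maml2 for LDN minus RA, both given above, and none for BMP4 minus RA.

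The wider pathway was taken from 61 further genes: other ligands and receptors, glycosyltransferases that modify Notch, the proteases that cut it, ligand endocytosis, the nuclear complex, inhibitors, other HES and HEY genes, HES partners and proneural targets. Of these, 53 passed the filter on low counts. Runx1t1 (ENSMUSG00000006586, chr4:13743436-13893649), which encodes a corepressor, was the only one called in any of the 12 comparisons. It was called between fractions under BMP4 and LDN, where edgeR called 0.921% and 0.994% of all genes. Between fractions, 3, 5 and 6 of the 53 had an edgeR unadjusted p under 0.05 under BMP4, LDN and RA. Over all genes the shares were 10.8%, 11.2% and 10.7%. For LDN over RA it was 10 in FOXA2-positive and 5 in FOXA2-negative cells, against 9.4% and 7.5% of all genes. For BMP4 over RA it was 6 in each, against 5.6% and 7.4%, and for BMP4 over LDN 5 in each, against 7.4% and 7.1%. For BMP4 minus LDN, BMP4 minus RA and LDN minus RA it was 4, 3 and 7, against 6.2%, 4.2% and 5.8%. Runx1t1 averaged 20.6 ± 6.42 CPM in the FOXA2-positive and 77.6 ± 34.2 CPM in the FOXA2-negative BMP4 cells (SD, n = 3 each), at a log2 fold change of -1.91 ± 0.36 (edgeR adjusted p = 0.00592). Under LDN it averaged 9.27 ± 1.19 CPM in FOXA2-positive cells (n = 2) and 47.6 ± 9.09 CPM in FOXA2-negative cells (n = 3), at -2.36 ± 0.44 (adjusted p = 0.00501). The fractions did not overlap in either. Under RA they overlapped and Runx1t1 was not called, at a mean of 23.4 CPM (13.6 to 29.0) in FOXA2-positive and 34.1 CPM (19.4 to 47.7) in FOXA2-negative cells. Over the 53, 22 fold changes between fractions were positive and 31 negative under BMP4, 26 and 27 under LDN and 27 and 26 under RA, with medians of -0.08, 0.00 and 0.08. In FOXA2-positive cells 20 were positive and 33 negative for BMP4 over LDN, with a median of -0.16, and in FOXA2-negative cells 28 were positive and 25 negative, with a median of 0.05.

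For the 2 members called in a comparison, the genes with the most similar pattern were taken among 6417 protein-coding genes averaging 20 CPM or more. The measure was Pearson's r of log2 CPM over the 17 libraries, as a description; the points share groups and library depth. Hes1 was most like Emg1 (r = 0.891), Nedd8 (0.889) and Nnat (0.888), and within groups, on deviations from the group means, r was 0.474, 0.724 and 0.383. Maml2 was most like Fen1 (0.863), Peg12 (0.86) and Lgr4 (0.855), with 0.597, 0.492 and 0.589 within groups.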

How the data were processed

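RNA of FOXA2-Venus R1 cells was made into SMART-Seq v2 libraries, per the labels. The authors deposited raw counts per gene for each of 17 libraries; mm10, HTSeq 0.11.2, UMI-tools 1.0.0 and cutadapt 1.18 appear in the submitters' processing notes. The sources used here do not give the aligner, annotation release or strand setting. The 5 summary lines of each table, 49.3% to 54.4% of tallied reads, stayed out of library sizes and tests.

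The tests used edgeR 4.0.16 under R 4.3.3: filterByExpr (minimum count 10, total 15) kept 17813 genes, TMM scaled the libraries, and 1 robust quasi-likelihood model was fitted to the 6 groups (11 residual degrees of freedom), with Benjamini-Hochberg adjustment over all genes tested and a threshold of 0.05. A called gene is one with an adjusted p under 0.05. An SE is the size of a log2 fold change over the root of its F statistic. CPM are TMM-scaled. Zero counts were read as allowing up to 3 counts, which covers counting error only. Coordinates and exon lengths are from GENCODE M21 and upstream windows from RefSeq. DESeq2 1.42.0, other scalings, filters and sets of libraries were alternatives. Groups came from the library titles. All 10 members, genes of the wider list called in a comparison, Foxa2, and the 3 genes most like each called member are named. Members and lists were chosen with earlier results of these data known. Same-numbered RA libraries deviated together (r = 0.587, 0.238 and 0.277), so ratios between RA fractions were given by number. The main tests used no pairing or replicate block in any treatment. However, 2 of 3 FOXA2-positive RA libraries correlated best with their own number. Both RA libraries numbered 1 stood apart, which alone can make numbers 2 and 3 deviate together from their group means. These r therefore cannot settle whether numbers 2 and 3 are pairs. The blocked fit changed no member's call between RA fractions.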

Additional observations from a re-analysis of the deposited data

How the results depend on the processing

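Of 1674 values of members under alternatives, 1634 kept their direction where called and their side of the threshold, 6 lost a call, 34 gained one and none of the called values reversed. The number of members called between fractions under BMP4 (1) was 0 with DESeq2's size factors in edgeR and with the compared groups alone, and 2 without both RA libraries numbered 1; leaving out each library gave 0 to 1. Under LDN (0) it was 3 in DESeq2, 2 with no filter, and 1 with the compared groups alone and without both RA libraries numbered 1, with 0 to 1 on leaving out each library. For BMP4 over LDN in FOXA2-positive cells (1) it was 2 in DESeq2, with the compared groups alone and without both RA libraries numbered 1, and 3 with no filter, with 1 to 1 on leaving out each library. In FOXA2-negative cells (0) it was 2 in DESeq2, 3 with no filter and 1 without both RA libraries numbered 1, with 0 to 1 on leaving out each library. For LDN over RA in FOXA2-positive cells (1) it was 2 in DESeq2, with a filter of 5 CPM in 2 libraries and without both RA libraries numbered 1, and 3 with no filter; in FOXA2-negative cells (0) it was 2 with no filter. The other comparisons kept their count under every alternative. With no filter, Hes5 was called in all 4 comparisons of BMP4 with LDN and of LDN with RA. The cause of these changes was not tested. Calls over all genes moved as well: DESeq2 called 420, 487, 174, 117 and 209 and edgeR with no filter 411, 460, 196, 141 and 294 for the fractions under BMP4 and LDN, BMP4 over LDN in the FOXA2-positive and FOXA2-negative cells, and LDN over RA in the FOXA2-positive cells, where edgeR with the filter called 164, 177, 57, 35 and 37. Without both RA libraries numbered 1 these counts were 225, 257, 83, 53 and 42. With the compared groups alone, where fewer genes were tested, they were 120, 212, 95, 32 and 9. DESeq2's size factors in edgeR gave 164, 169, 60, 34 and 36, and a filter of 5 CPM in 2 libraries 181, 194, 67, 35 and 43. For LDN over RA in FOXA2-negative cells, edgeR called 83 genes with no filter and 7 with the filter.

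Numbers under BMP4 and LDN paired the libraries weakly (r = 0.051 to 0.079 and 0.057 to 0.062), so they were read as shared numbers only, although 3 of 3 and 2 of 2 FOXA2-positive libraries correlated best with their own number. With the replicate block, the members called were 2 between fractions under BMP4, 1 under LDN, 2 for BMP4 over LDN in the FOXA2-positive and 1 in the FOXA2-negative cells, and 2 for LDN over RA in FOXA2-positive cells, Notch2 among them except in FOXA2-negative cells. The other counts did not change. The blocked fit had 5 residual degrees of freedom. In these 5 comparisons it called 1.58%, 1.24%, 0.348%, 0.157% and 0.157% of all genes. Without the block the shares were 0.921%, 0.994%, 0.32%, 0.196% and 0.208%.

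Leaving out a FOXA2-positive LDN library left 1, which was assumed to vary like the other groups. The common biological coefficient of variation was 0.632, and the few reads of Hey1 and Dll1, at most 95 and 155 counts in a library, limit their precision.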
